A study of Mus musculus with 6 samples.

Results

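The genes described here encode laminins, fibronectin and associated proteins of the basement membrane, read in cultures of mouse embryonic stem cells grown with feeder cells. They are Lama1, Lama5, Lamb1 and Lamc1 (laminin chains), Nid1 and Nid2 (nidogens), Hspg2 and Agrn (the heparan sulphate proteoglycans perlecan and agrin), Sparc (a collagen-binding matrix protein) and Fn1 (fibronectin). They were chosen by name, with earlier results of these data known. Each was read from the 1 probe set that the platform annotation assigns to that gene alone. All 10 were measured, among 19937 genes in all.

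Transcripts were measured on 6 one-colour arrays of total RNA. In the first group of 3 arrays the cells received CHIR99021, which blocks the kinase GSK3 and so stabilises β-catenin. In the second group of 3 they received XAV939, which blocks tankyrase, stabilises Axin and so lowers β-catenin. Treatment lasted 24 h in both groups, with CHIR99021 at 3 µM. The XAV939 dose is 3 µM in the sample labels and 1 µM in the treatment protocol. Both groups were the same V6.5 line, which carries the Ctnnb1-Biotin-3xFLAG knock-in and is labelled Ctnnb1-BioFLneo;BirA ESC. It was cultured in serum and LIF with feeder cells from DR4 mice. Untreated arrays were not analysed here, so which compound moved a gene cannot be told apart. A gene said to have risen or fallen was higher or lower with CHIR99021 than with XAV939, and nothing more is meant. The labels do not say whether the replicates were separate cultures, so p-values measure only the spread between these arrays.

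A basement membrane is a sheet of extracellular matrix on which epithelial cells rest. Laminins are trimers of an α, a β and a γ chain that polymerise at the cell surface, where integrins and dystroglycan bind them. Nidogens bind both the laminin γ1 chain and type IV collagen, and perlecan and agrin add heparan sulphate chains that hold growth factors. Fibronectin forms a separate fibrillar matrix through integrins. In the early mouse embryo the laminins with the α1 and α5 chains are the main ones, both built with β1 and γ1.

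Axin2, a negative-feedback target of β-catenin, was at 7.48, 7.41 and 7.54 in the CHIR99021 arrays and at 5.46, 5.79 and 5.46 in the XAV939 arrays, on the log2 scale used throughout. The transcript of the tagged gene, Ctnnb1, differed by 0.018 ± 0.054 (SE). Of 13 embryonic stem cell markers, 4 passed the test as higher and 5 as lower with CHIR99021. Among those that did not pass, Pou5f1, Sox2 and Dppa5a had means of 11.33, 10.98 and 12.62 with CHIR99021 and 11.51, 10.98 and 12.55 with XAV939, on arrays whose medians lay between 5.67 and 5.71. Pearson correlations between arrays, taken across genes, were 0.997 to 0.999 within a treatment and 0.994 to 0.995 between treatments. CHIR99021 replicate 3 and XAV939 replicate 1 each correlated least with the others of their treatment, and what leaving them out changes for the 10 genes stands beside each result that rests on them.

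Of the 10 genes fibronectin rose most, and 4 others rose by smaller amounts: both nidogens, Sparc and the laminin α1 chain. The other laminin chains and both heparan sulphate proteoglycans did not pass the test. In numbers, 5 of the 10 genes were higher with CHIR99021 at an adjusted p under 0.05 in limma's moderated test, against 5.31% of all genes tested. None was lower, where 4.34% of all genes were. In either direction 9.65% of all genes passed. At an unadjusted p under 0.05, 6 of the 10 were higher and none lower, where 11.2% and 9.40% of all genes were. The 10 genes were chosen with earlier results of these data known, so these shares stand side by side without a test. The median log2 difference of the 10 genes, CHIR99021 minus XAV939, was 0.20, beside 0.0066 over all genes.

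**Figure D1:**
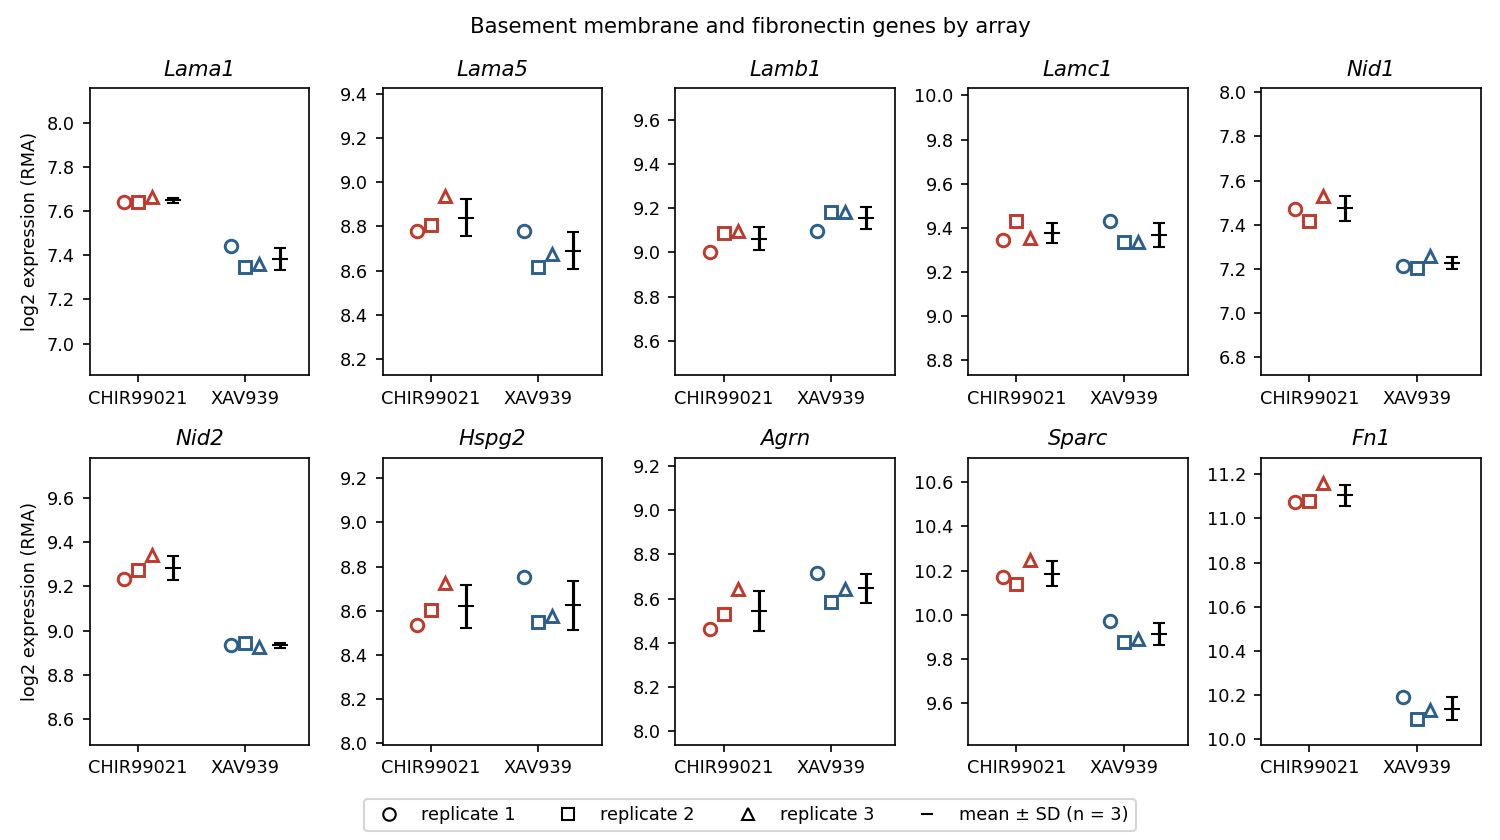
Log2 expression of each of the 10 genes (vertical axis, RMA values, the same span in every panel) in the 3 CHIR99021 arrays (left, red) and the 3 XAV939 arrays (right, blue), with mean ± SD (n = 3). The treatments are clearly apart for Fn1, apart by less for Nid2, Sparc, Lama1 and Nid1, and overlap for Lama5, Lamc1, Hspg2 and Agrn.

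Promoter sequence was taken, as a description only, for genes that rose and for genes that did not. The RefSeq promoter table (build GRCm38.p6) held entries for 6 of the 10 genes, Lama5, Lamb1, Nid1, Hspg2, Agrn and Sparc. It had none for Fn1, Lama1, Lamc1 and Nid2. The 250 bases before the start are shown for Nid1 and Sparc, which rose, and for Lamb1 and Agrn, which did not pass. Capitals mark matches on either strand to the TCF/LEF letters CTTTG followed by 2 bases that are each A or T, to the GC box GGGCGG and to the CCAAT box CCAAT. GC box matches may overlap each other, and no match to one motif overlaps another motif here.
Nid1, chr13:13437352-13437601, plus strand: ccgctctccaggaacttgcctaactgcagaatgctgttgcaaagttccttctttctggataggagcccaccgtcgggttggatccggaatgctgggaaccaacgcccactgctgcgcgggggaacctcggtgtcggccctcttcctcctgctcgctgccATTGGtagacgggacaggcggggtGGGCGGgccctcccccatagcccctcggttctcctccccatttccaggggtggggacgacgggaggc
Sparc, chr11:55420081-55420330, minus strand: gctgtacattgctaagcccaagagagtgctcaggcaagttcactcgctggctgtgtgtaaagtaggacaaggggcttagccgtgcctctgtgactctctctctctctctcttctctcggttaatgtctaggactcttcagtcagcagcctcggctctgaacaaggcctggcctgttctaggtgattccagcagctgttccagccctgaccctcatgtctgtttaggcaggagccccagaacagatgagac
Lamb1, chr12:31265043-31265292, plus strand: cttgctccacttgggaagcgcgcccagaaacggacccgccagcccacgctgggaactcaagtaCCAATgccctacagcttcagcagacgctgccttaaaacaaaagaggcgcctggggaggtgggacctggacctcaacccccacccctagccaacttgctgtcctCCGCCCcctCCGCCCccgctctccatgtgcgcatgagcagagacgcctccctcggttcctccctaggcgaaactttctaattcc
Agrn, chr4:156197489-156197738, minus strand: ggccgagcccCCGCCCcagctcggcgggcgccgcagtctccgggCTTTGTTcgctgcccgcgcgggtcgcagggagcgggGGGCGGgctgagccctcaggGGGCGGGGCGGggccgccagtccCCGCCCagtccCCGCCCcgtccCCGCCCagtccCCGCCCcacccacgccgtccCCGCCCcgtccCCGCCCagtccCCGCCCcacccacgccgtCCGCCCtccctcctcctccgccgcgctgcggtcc

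Of these windows only that of Agrn held a TCF/LEF match, CTTTGTT, starting 206 bases before the start. Windows of the same length before 32851 starts held a TCF/LEF match in 14.8%, a GC box in 32.7% and a CCAAT box in 33.8%. Nid1 had 1 GC box and 1 CCAAT box, which reads on the opposite strand. Lamb1 had 2 GC boxes and 1 CCAAT box, and Agrn had 12 GC boxes. None of the 3 motifs stood in the Sparc window, which says only that these letters are not there. The matches describe the sequence and were not tested for binding. The Lama5 and Hspg2 windows, like a second Agrn window, had no TCF/LEF match and held 4, 5 and 2 GC boxes.

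The laminin chains were the first group. Lama1 (probe set 10446473), the α1 chain of the earliest embryonic laminin, was at 7.64, 7.64 and 7.66 with CHIR99021 and at 7.44, 7.35 and 7.36 with XAV939. The CHIR99021 arrays lay within a narrow band, all above every XAV939 array. Lama1 rose by 0.26 ± 0.05 (SE, n = 3 per treatment, limma adjusted p = 0.00817), or 1.20-fold, with a 95% interval of 0.15 to 0.38.

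Lama5 (probe set 10490384), the α5 chain, was at 8.78, 8.80 and 8.94 with CHIR99021 and at 8.78, 8.61 and 8.67 with XAV939. CHIR99021 replicate 3 was the highest array, and XAV939 replicate 1 lay level with CHIR99021 replicate 1, so the treatments overlapped. Without XAV939 replicate 1 they did not overlap, but the share of all genes for which this held was not counted. The difference was 0.15 ± 0.06 (SE) and did not pass over all genes (limma adjusted p = 0.215), although its unadjusted p was 0.0411. Its 95% interval was 0.0074 to 0.29, before adjustment, so a rise as large as that of Lama1 was within it. Lama5 differed by 0.20 without XAV939 replicate 1 (limma adjusted p = 0.0839), by 0.10 without CHIR99021 replicate 3 (limma adjusted p = 0.483) and by 0.15 without both arrays, and it passed in none of these fits.

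The log2 ratio of Lama1 to Lama5 within an array was -1.14, -1.16 and -1.27 with CHIR99021 and -1.34, -1.27 and -1.31 with XAV939. Its mean was 0.11 higher with CHIR99021, and a two-sided exact permutation test over the arrays gave p = 0.2, where 3 against 3 arrays cannot go below 0.1. The difference lay between 0.087 and 0.15 with 1 array left out. This test could not have passed 0.05, so it does not tell whether the α chains changed unequally. Only the change of this ratio is of use, since values of different probe sets are not amounts on one scale.

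Lamb1 (probe set 10395163), the β1 chain, went the other way by a small amount, at 9.00, 9.09 and 9.10 with CHIR99021 and 9.10, 9.18 and 9.18 with XAV939. The highest CHIR99021 array and the lowest XAV939 array nearly touched, but the treatments did not overlap. The difference of -0.09 ± 0.05 (SE) did not pass (limma adjusted p = 0.413), with a 95% interval of -0.21 to 0.029, and was -0.14 without CHIR99021 replicate 3 and XAV939 replicate 1 (limma adjusted p = 0.165). The groups did not overlap for 6 of the 10 genes, 5 of them higher and Lamb1 lower with CHIR99021. Over all genes the groups did not overlap for 25.1%, with 14.1% higher and 11.0% lower.

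Lamc1 (probe set 10358816), the γ1 chain common to both laminins, was at 9.34, 9.43 and 9.35 with CHIR99021 and at 9.43, 9.34 and 9.33 with XAV939. One array of each treatment, CHIR99021 replicate 2 and XAV939 replicate 1, was high and the others were level with each other. The difference was 0.0089 ± 0.0545 (SE, limma adjusted p = 0.964), and the 95% interval of -0.11 to 0.13 leaves out a rise of the size measured for Lama1. Without XAV939 replicate 1 it was 0.040 (limma adjusted p = 0.719).

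Both nidogen genes rose. Nid1 (probe set 10403584), the nidogen found in most basement membranes, was at 7.47, 7.42 and 7.53 with CHIR99021 and at 7.21, 7.20 and 7.26 with XAV939. Nid2 (probe set 10412921), its close relative, was at 9.23, 9.27 and 9.34 with CHIR99021 and at 8.93, 8.95 and 8.92 with XAV939. All CHIR99021 arrays lay above all XAV939 arrays for both genes. Nid2 rose by 0.35 ± 0.05 (SE, 1.27-fold, limma adjusted p = 0.00155). Nid1 rose by 0.25 ± 0.05 (SE, 1.19-fold, limma adjusted p = 0.0134), a call that was lost without CHIR99021 replicate 1 (adjusted p = 0.0513) or XAV939 replicate 2 (adjusted p = 0.0552).

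The heparan sulphate proteoglycans did not pass. Hspg2 (probe set 10509280), encoding perlecan, was at 8.53, 8.60 and 8.73 with CHIR99021 and at 8.75, 8.55 and 8.58 with XAV939. A single array of each treatment was high, CHIR99021 replicate 3 and XAV939 replicate 1, and the others lay together. The difference was -0.0047 ± 0.0718 (SE, limma adjusted p = 0.987) and was 0.0064 without both of these arrays. Agrn (probe set 10519270), encoding agrin, was at 8.46, 8.53 and 8.64 with CHIR99021 and at 8.71, 8.58 and 8.64 with XAV939. The same arrays were the highest of their treatments, and the treatments overlapped. Agrn differed by -0.10 ± 0.06 (SE, limma adjusted p = 0.431), with a 95% interval of -0.24 to 0.036. Without CHIR99021 replicate 3 the treatments did not overlap, and the difference was -0.15 (limma adjusted p = 0.230). The share of all genes without overlap when that array is left out was not counted, so the separation is a description only. Leaving out XAV939 replicate 1 gave -0.070, leaving out both gave -0.12, and the value closest to 0 was -0.062, when CHIR99021 replicate 1 was left out. Agrn passed in none of these fits.

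Sparc (probe set 10386058), a matrix glycoprotein that binds collagen and is abundant in the parietal endoderm of the mouse embryo, was at 10.17, 10.14 and 10.25 with CHIR99021 and at 9.97, 9.88 and 9.89 with XAV939. No array of one treatment reached the other. Sparc rose by 0.27 ± 0.06 (SE, 1.21-fold, limma adjusted p = 0.00993).

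Fn1 (probe set 10355403) was at 11.08, 11.08 and 11.16 with CHIR99021 and at 10.19, 10.09 and 10.13 with XAV939. The gap between the treatments was many times the spread within either. Fibronectin rose by 0.97 ± 0.05 (SE, 1.95-fold, limma adjusted p = 2.49e-06), with a 95% interval of 0.85 to 1.09. By absolute difference it stood at rank 86 of the 19937 genes, while Nid2, the next of the 10, stood at rank 1024. The upper bound of the interval of Nid2, 0.46, lay under the lower bound of that of Fn1.

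**Figure D2:**
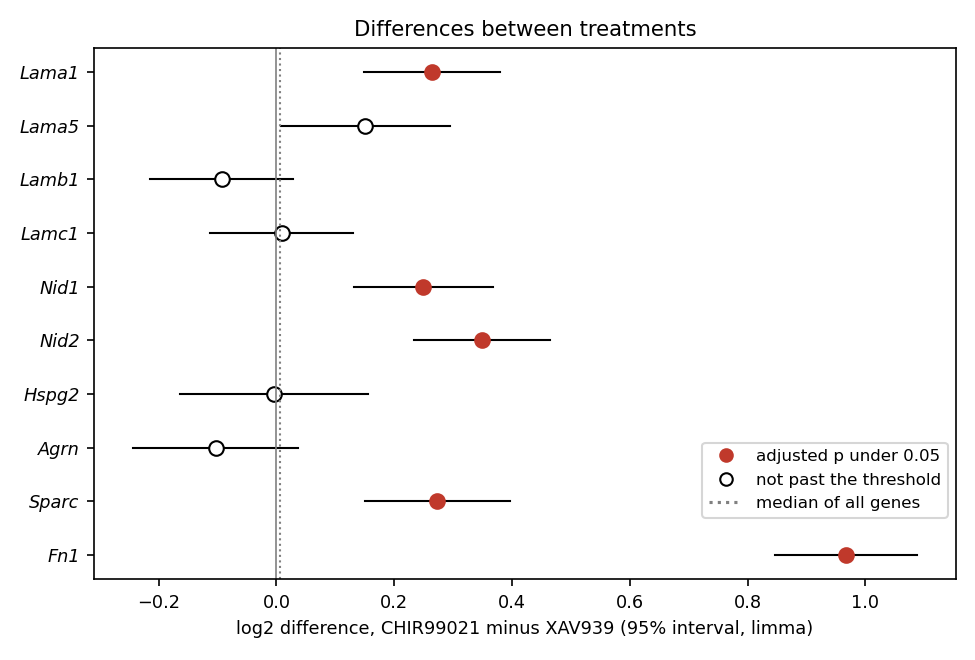
Log2 difference of each gene between treatments, CHIR99021 minus XAV939 (points), with the 95% interval of the limma fit (lines, 3 arrays per treatment). Filled points have an adjusted p under 0.05, and the dotted line is the median of all genes; Fn1 at 0.97 stands apart from the other 4 genes that rose, at 0.25 to 0.35.

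The genes whose values followed Fn1 most closely over the 6 arrays were taken by the root mean square deviation between values centred on each gene's mean. They were Cdh2, encoding N-cadherin, at 0.037, Col1a1, a chain of type I collagen, at 0.043, and Lsp1, an actin-binding protein of leukocytes, at 0.045 log2 units. Cdh2 was at 7.72, 7.69 and 7.82 with CHIR99021 and at 6.81, 6.81 and 6.75 with XAV939. The measure ranks every gene in which the treatments are apart by about the same amount, and the arrays are shared, so the likeness is a description of these 6 arrays.

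Within a treatment the 10 genes tended to be high on the same arrays. CHIR99021 replicate 3 was the highest of its treatment for 9 of the 10 genes, where it was so for 46.8% of all genes. XAV939 replicate 1 was the highest of its treatment for 7 of the 10, against 40.8% of all genes. The median deviation of the 10 genes from their treatment mean was 0.058 on CHIR99021 replicate 3 and 0.058 on XAV939 replicate 1, and between -0.041 and -0.014 on the other 4 arrays. What set these arrays apart was not tested. Without both arrays 5 of the 10 genes were higher and none lower by limma, and the median difference was 0.18.

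**Figure D3:**
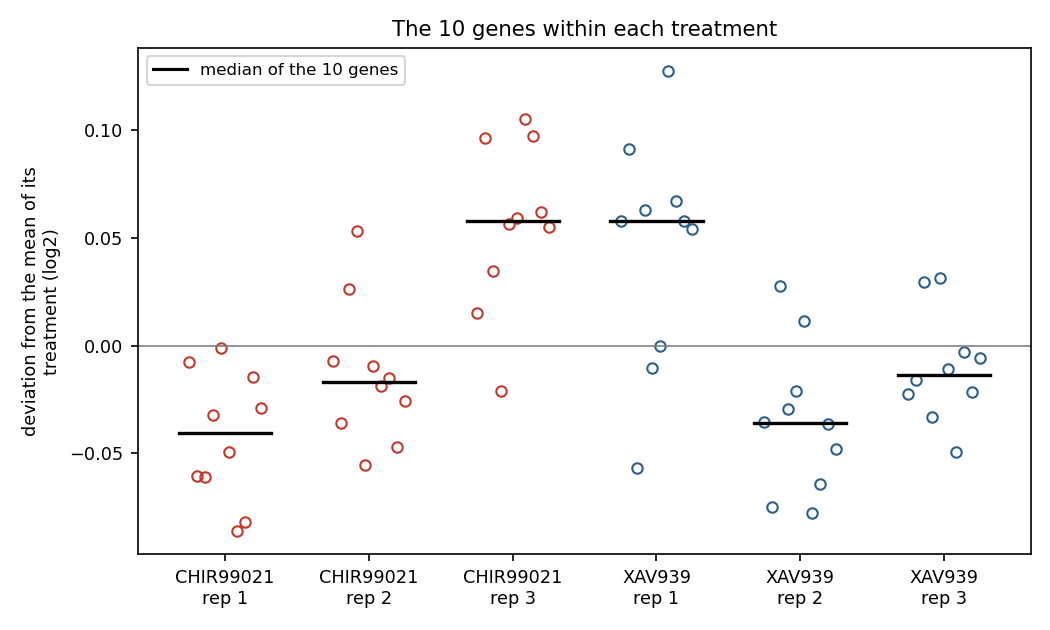
Deviation of each of the 10 genes from the mean of its treatment (vertical axis, log2 units) on each array, with CHIR99021 arrays in red at the left and XAV939 arrays in blue at the right. The black bars are medians of the 10 genes, and those of CHIR99021 replicate 3 and XAV939 replicate 1 lie at 0.058, above the other 4 arrays.

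Other laminin chains were read beside these. The counts of this list and of those that follow stand beside 5.31% of all genes that rose and 4.34% that fell. Of 6 laminin chains measured, 2 rose, none fell and 4 did not pass, with a median difference of 0.054. At an unadjusted p under 0.05 in limma, 2 were higher and none lower, where 11.2% and 9.40% of all genes were. Lamb2, the β2 chain that can take the place of β1 in a trimer, rose by 0.34 ± 0.05 (SE, limma adjusted p = 0.00220), with means of 7.65 with CHIR99021 and 7.31 with XAV939. Lamb3, the β3 chain of the laminin of skin, rose by 0.24 ± 0.06 (SE, limma adjusted p = 0.0234). Lamb3 lost its call when replicate 2 or 3 of either treatment was left out, with adjusted p = 0.0575 to 0.114.

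Among 20 further basement membrane genes, 2 rose, 1 fell and 17 did not pass, with a median difference of 0.057. Over all genes 5.31% rose and 4.34% fell. Fbln1, encoding a protein that binds fibronectin, laminin and nidogen, rose by 0.68 ± 0.06 (SE), and Tinagl1, a laminin-binding matrix protein, by 0.39 ± 0.09 (SE). Col18a1, whose collagen carries heparan sulphate and yields endostatin, fell by 0.55 on the log2 scale. The type IV collagen chains Col4a1 and Col4a2, the network to which nidogens bind, differed by 0.17 ± 0.06 and 0.19 ± 0.06 (SE) and did not pass (limma adjusted p = 0.160 and 0.0685). Without XAV939 replicate 1, Col4a1 passed (adjusted p = 0.0274). Tinagl1 lost its call when replicate 2 or 3 of either treatment was left out, with adjusted p = 0.0581 to 0.0946.

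Of 20 receptor genes for laminin and fibronectin, 4 rose, 2 fell and 14 did not pass, with a median difference of -0.026. Itga6, the integrin α6 chain of laminin receptors, rose by 0.38 ± 0.06 (SE). Itga3, the α3 chain of a receptor for the laminin with the α5 chain, fell by 0.67 and was at 8.69, 8.71 and 8.81 with CHIR99021 and at 9.41, 9.39 and 9.43 with XAV939. Dag1, encoding dystroglycan, which binds laminin, perlecan and agrin, fell by 0.26. Itga1, of a receptor for collagen and laminin, rose by 0.56 ± 0.09 (SE), Itgav, of receptors for fibronectin and vitronectin, by 0.29 ± 0.06 (SE), and the proteoglycan gene Sdc2 by 0.21 ± 0.06 (SE). The main fibronectin receptor is the pair of Itga5 and Itgb1, which differed by 0.062 ± 0.056 and -0.033 ± 0.069 (SE) and did not pass (limma adjusted p = 0.641 and 0.880). The call of Dag1 was lost without CHIR99021 replicate 2 (adjusted p = 0.0571), and that of Sdc2 without any one of the 6 arrays (adjusted p = 0.0643 to 0.164). Itgb5, the β5 chain that pairs with αv, passed as lower without CHIR99021 replicate 3 (adjusted p = 0.00869).

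Enzymes that build or trim heparan sulphate, the chains carried by perlecan and agrin, included 2 of 16 that fell and none that rose by limma, with a median difference of 0.024. At an unadjusted p under 0.05, 4 were higher and 3 lower, where 11.2% and 9.40% of all genes were. Sulf1, which removes sulphate groups from the chains outside the cell, fell by 0.65, and Ext1, which with Ext2 polymerises them, fell by 0.35. Ext2 differed by 0.23 ± 0.08 (SE) and did not pass (limma adjusted p = 0.0879). The count of 0 higher rested on single arrays and on the fit. With all arrays kept it was 1 with the replicate number as a block and 2 with array quality weights. Without XAV939 replicate 1, Ext2 and B4galt7, an enzyme of the linker that joins the chains to the core protein, were higher (adjusted p = 0.0297 and 0.0398). Without XAV939 replicate 3, the 6-O-sulphotransferase gene Hs6st2 was higher (adjusted p = 0.0269) and its relative Hs6st1 lower (adjusted p = 0.0380).

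Of 16 genes of matrix turnover and collagen folding, 11 rose, 1 fell and 4 did not pass, with a median difference of 0.52. The members with the smallest p were Plaur, the receptor of urokinase, which rose by 0.67 ± 0.05 (SE), Serpinh1, a collagen chaperone, by 0.54 ± 0.06 (SE), Timp1, an inhibitor of metalloproteinases, by 0.63 ± 0.07 (SE), and Plau, urokinase itself, by 0.56 ± 0.07 (SE). Mmp2, a metalloproteinase that cuts type IV collagen, fell by 0.39, a call lost when all probe sets were tested (adjusted p = 0.0536). The list holds proteases as well as their inhibitors, and it was described by counts alone.

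Relatives of Sparc and other matricellular genes numbered 13, of which 4 rose, 2 fell and 7 did not pass, with a median difference of 0.047. Fstl1, a secreted protein related to Sparc, rose by 0.95 ± 0.07 (SE), Ccn1 by 0.92 ± 0.06 (SE), Tnc, encoding tenascin C, by 0.87 ± 0.07 (SE) and Thbs1, encoding thrombospondin 1, by 0.22 ± 0.06 (SE). Ccn2 fell by 0.34 and the Sparc-related proteoglycan gene Spock2 fell by 0.26. The call of Thbs1 was lost without any one array but CHIR99021 replicate 1 (adjusted p = 0.0649 to 0.163), and that of Spock2 without XAV939 replicate 2 or without CHIR99021 replicate 1 or 2 (adjusted p = 0.0684 to 0.0778).

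Adaptors that tie integrins to actin numbered 13, of which 1 rose, 2 fell and 10 did not pass, with a median difference of 0.085. Over all genes 5.31% rose and 4.34% fell. Fermt2, encoding kindlin 2, rose by 0.28 ± 0.07 (SE), while its relative Fermt1 fell by 0.26 and the scaffold gene Bcar1 fell by 0.29. Each of these calls was lost without 1 of 3 arrays, at adjusted p values of 0.0611 to 0.0912 for Fermt2 (any CHIR99021 replicate), 0.0618 to 0.113 for Fermt1 (XAV939 replicate 2, or CHIR99021 replicate 1 or 2) and 0.0554 to 0.0952 for Bcar1 (XAV939 replicate 3, or CHIR99021 replicate 1 or 2). Without XAV939 replicate 1, Zyx, encoding zyxin, passed as well (adjusted p = 0.0292), so that 2 adaptors were higher.

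**Figure D4:**
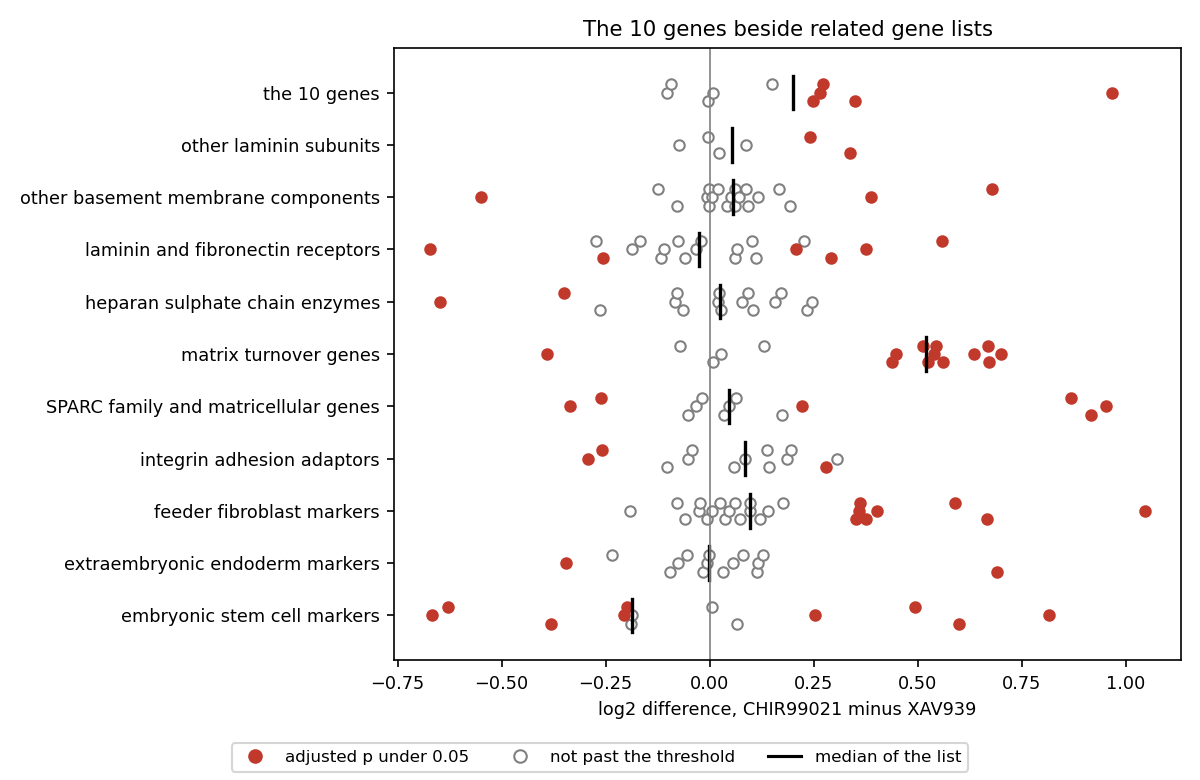
Log2 differences, CHIR99021 minus XAV939, of the 10 genes (top row) and of the genes of 10 related lists (rows below), with black bars at the list medians. Filled points have an adjusted p under 0.05 in the fit over all genes; the medians are 0.20 for the 10 genes, 0.52 for matrix turnover and between -0.19 and 0.096 for the others.

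Cells other than stem cells could carry these transcripts, so markers of feeder fibroblasts and of extraembryonic endoderm were read on the same arrays. In RNA from whole cultures a change in the number of cells of a type and a change in RNA per cell cannot be told apart. Of 25 fibroblast markers, 8 rose, none fell and 17 did not pass by limma, with a median difference of 0.096. At an unadjusted p under 0.05, 8 were higher and 1 lower, where 11.2% and 9.40% of all genes were. The markers with the smallest p were Col1a1, which rose by 1.05 ± 0.05 (SE), Pdgfrb by 0.59 ± 0.05 (SE), Tagln by 0.67 ± 0.07 (SE) and Acta2 by 0.35 ± 0.05 (SE). The mean of the 25 log2 values lay between 6.16 and 6.20 on the CHIR99021 arrays and between 5.94 and 6.05 on the XAV939 arrays. The fibroblast markers Dcn, Lum and Fap were at means of 4.44, 4.08 and 4.10 with CHIR99021 and 4.41, 4.02 and 4.16 with XAV939. They lay under the median of the arrays and did not pass. Other markers that did not pass lay above that median. Among them, Col3a1 and Thy1 had means of 6.40 and 6.37 with CHIR99021 and 6.31 and 6.44 with XAV939. Ccl2 passed as higher without XAV939 replicate 1 (adjusted p = 0.0167). The part of fibroblasts in the rise of Fn1, Sparc, Nid1, Nid2 and Lama1 was not tested.

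Of 15 extraembryonic endoderm markers 1 rose, 1 fell and 13 did not pass, with a median difference of -0.0011. Over all genes 5.31% rose and 4.34% fell. The mean of the log2 values of the 15 markers was 5.47 to 5.49 on the CHIR99021 arrays and 5.41 to 5.51 on the XAV939 arrays. The regulators Gata4, Gata6 and Sox17 differed by -0.056 ± 0.077, 0.11 ± 0.07 and 0.033 ± 0.059 (SE) and did not pass. Fst, encoding follistatin, rose by 0.69 ± 0.05 (SE). Dab2, an endocytic adaptor, fell by 0.35, a call lost when replicate 1 or 2 of either treatment was left out (adjusted p = 0.0673 to 0.126).

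Of 13 embryonic stem cell markers, 4 rose, 5 fell and 4 did not pass, with a median difference of -0.19. Klf4 rose by 0.81 ± 0.07 (SE), Esrrb by 0.60 ± 0.06 (SE), Nanog by 0.49 ± 0.05 (SE) and Zfp42 by 0.25 ± 0.06 (SE). Utf1 fell by 0.67, Tdgf1 fell by 0.63, Fgf4 fell by 0.38, Lin28a fell by 0.21 and Sall4 fell by 0.20. The mean of the list was 10.24 to 10.32 on the CHIR99021 arrays and 10.29 to 10.31 on the XAV939 arrays. The call of Sall4 was lost without any one array (adjusted p = 0.0645 to 0.169), that of Lin28a without any one but XAV939 replicate 1 (adjusted p = 0.0564 to 0.0842), and that of Zfp42 without XAV939 replicate 2 or without CHIR99021 replicate 1 or 3 (adjusted p = 0.0690 to 0.0782). Pou5f1 passed as lower without CHIR99021 replicate 3 (adjusted p = 0.0396), and Dppa4 without XAV939 replicate 1 (adjusted p = 0.0155).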

How the data were processed

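Values were deposited as log2 expression of each probe set, which the authors computed with RMA, per the submitters' processing notes. For the version of RMA and for the genome build, the sources used here give nothing. RMA corrects background, normalises arrays by quantiles and summarises probes, and it tends to compress differences of dim genes. Of 34760 probe sets, 21640 named 1 gene in the platform annotation, 1321 named several and 11799 are unnamed here. Each gene was read from its single-gene probe set with the highest mean, which gave 19937 genes, and each of the 10 genes described had 1 such probe set.

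Treatments were compared with limma 3.58.1 (lmFit, eBayes) in R 4.3.3 on all genes without further filtering, with Benjamini-Hochberg adjustment and a threshold of 0.05. The code was tested on simulated data. Levels of different probe sets were not compared as amounts, and no detection call or scan batch was analysed here. For arrays, their number limits the precision.

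The genes and the 10 lists beside them were chosen with earlier results of these data known, so no list was tested as a set. The lists held 164 different genes, of which 157 had a value and 7 were not analysed here. The text names the 10 genes, Axin2, Ctnnb1, the 3 genes most like Fn1 and, from each list and direction, all genes that passed where at most 5 did and otherwise the 4 with the smallest p. Other genes named, such as Col4a1, Col4a2, Itga5, Itgb1, Ext2, the cell type markers that did not pass and genes that passed only with 1 array left out, were chosen after their values were seen. Promoter sequences are those of RefSeq. Same-numbered arrays did not deviate together (correlations of deviations of -0.096, 0.060 and -0.14), so the replicate numbers were not taken as pairs.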

Additional observations from a re-analysis of the deposited data

How the results depend on the processing

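The 5 genes that rose kept their direction in all 16 alternatives. Of these, 15 were planned and 1, leaving out CHIR99021 replicate 3 and XAV939 replicate 1 together, was chosen after seeing the data. In some alternatives the differences of the 10 genes could not change, so their direction was fixed. These were the replicate number as a block, genes below the median level left out and the mean over the probe sets of a gene. The same held for all probe sets tested, eBayes with trend and robust settings, and the threshold of 0.01. Leaving out 1 array gave 4 to 5 genes higher, 0 lower and a median difference of 0.16 to 0.22. The call lost was that of Nid1, also when all probe sets were tested (adjusted p = 0.0512) and at a threshold of 0.01. The adjusted p reached 0.0401 for Lama1 and 0.0461 for Sparc. The Lama1 to Lama5 ratio differed by 0.087 to 0.15 with 1 array left out. Genes near 0 changed sign: Lamc1 lay between -0.018 and 0.040 with 1 array left out, at -0.0021 with each array centred on its median and at 0.051 without both arrays, Hspg2 between -0.057 and 0.059, at 0.016 with array quality weights and at 0.0064 without both arrays, and Ctnnb1 between -0.017 and 0.050, at -1.4e-05 and at -0.019. Over all genes, 1058 were higher and 866 lower. With 1 array left out these were 726 to 1130 and 528 to 1117, the lowest counts of lower genes being 528 without CHIR99021 replicate 2 and 573 without CHIR99021 replicate 1. Testing all probe sets gave 584 higher and 460 lower, a threshold of 0.01 gave 621 and 497, array weights gave 1448 and 1409, and leaving out both arrays gave 1080 and 1245. The counts of genes called over the 10 lists were 41 to 55 with 1 array left out, against 53. The replicate number as a block (replicate block) gave 5 of the 10 genes higher and 0 lower, and 876 higher and 702 lower over all genes. Of 50 named genes that passed, 35 passed in all alternatives run for them. Signal over background was not analysed here, and the number of arrays limits what could be called.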
